A study of Homo sapiens with 4 samples.

Results

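MicroRNA miR-21 and its opposite arm, miR-21*, are the products of the 2 sides of one hairpin RNA, and each had 1 of the 856 features on the chip. They were chosen by their miRBase mature-sequence accessions, MIMAT0000076 for miR-21 and MIMAT0004494 for miR-21*. The choice was made because miR-21 is commonly raised in carcinomas and because its deposited intensity differed widely between these lines. The levels between lines are therefore a description and carry no test.

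The data were 4 one-colour arrays, 1 for each of the human cell lines KYSE-520, KYSE-450, KYSE-890 and KYSE-960, established from oesophageal squamous cell carcinoma. Per the labels, every line was grown untreated in a medium with 5% serum, and 500 ng of its total RNA carried the dye Hy5 through a hybridization of 16 h at 32 °C. The series had no normal oesophagus, no treated cells and no further array of a line, and each line stands for 1 tumour. Nothing measured here has a spread between replicates, and differences between tumours, cultures, RNA extracts and arrays cannot be told apart. The squamous identity of the lines was not checked against marker microRNAs, because the table lists features by accession alone and names for the other features were not used here.

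A microRNA is cut from a hairpin precursor, and 1 of the arms is usually loaded into an Argonaute protein while the other is mostly degraded. The loaded strand pairs through its seed with sites in messenger RNAs and lowers their translation and stability. The 5′ arm, miR-21, is the abundant product of this hairpin in most tissues, and it is known for repressing the tumour suppressor PDCD4. In squamous epithelium and its carcinomas miR-21 is among the microRNAs most often described as raised in tumours. The historical asterisk marks the 3′ arm, now written miR-21-3p, as the usually scarcer strand.

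The sequences of miR-21 and of its precursor, the hairpin that both arms come from, are shown, and miR-590-5p is shown because it carries the same seed. RefSeq (GRCh38.p14) gave a mature sequence for 1 of the 2 members, miR-21-5p. Capitals mark the seed, bases 2 to 8 from the 5′ end, in the mature sequences and miR-21-5p in the precursor.
hsa-miR-21-5p: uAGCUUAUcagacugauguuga
hsa-miR-590-5p: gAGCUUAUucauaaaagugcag
MIR21 hairpin: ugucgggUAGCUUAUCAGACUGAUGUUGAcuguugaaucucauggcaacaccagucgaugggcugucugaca

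In GRCh38.p14 the MIR21 precursor lies on chr17:59841266-59841337, plus strand, and miR-21-5p on chr17:59841273-59841294. The precursor falls inside the span of the protein-coding gene VMP1, chr17:59707654-59842255, and ends 918 bp before the end of VMP1. The table used gives gene spans and not exons. The 22 bases of miR-21-5p are bases 8 to 29 of the 72-base precursor. In the minimum free energy fold of the precursor, computed with RNAfold, 19 of these 22 bases were paired, with partners between bases 46 and 65, which is the side that miR-21* comes from.

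Of 2370 mature microRNA names in the RefSeq table, 2 carried the seed AGCUUAU, miR-21-5p and miR-590-5p. Messenger RNA sites for this seed hold the complement AUAAGCU. Outside the seed, miR-21-5p and miR-590-5p had the same base at 1 of 15 positions, and miR-590-5p lies on another chromosome, at chr7:74191213-74191234. The nearest of the 2350 other distinct mature sequences in the table differed from miR-21-5p by 7 single-base substitutions, insertions or deletions. The probe sequences of the chip were not given in the sources used here, so what else the miR-21 feature could capture was not tested.

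miR-21 was bright in KYSE-520 and KYSE-450 and dim in KYSE-890 and KYSE-960. KYSE-520 had a deposited intensity of 8415, KYSE-450 had 3197, KYSE-890 had 220.5 and KYSE-960 had 113. A feature was called above background where its intensity exceeded the median of its array by 3 times the SD of the dim side, a threshold of 146 for KYSE-520, 135 for KYSE-450, 128 for KYSE-890 and 129 for KYSE-960. miR-21 was 57.8 times the threshold of KYSE-520, 23.8 times that of KYSE-450 and 1.73 times that of KYSE-890. In KYSE-960 it stood at 0.875 of the threshold and was not above background, so the array gives only an upper bound there and does not show that the RNA is absent. This call turns with the threshold: at 2 SD in place of 3, miR-21 was above background in all 4 lines. None of these intensities was near the 16-bit ceiling of 65535.

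The position of miR-21 within each array moved in the same order, and it does not depend on how the arrays are scaled. By brightness among 856 features miR-21 ranked 8th on the KYSE-520 array, 15th on that of KYSE-450 and 62nd on that of KYSE-890. In KYSE-960 it ranked 125th, in a tie of 4 features and outside the 94 features above background on that array. A rank also depends on how well each probe binds, so it compares one feature between arrays and not miR-21 with other microRNAs.

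The opposite arm was dim in every line. KYSE-520 had 174 intensity units of miR-21*, KYSE-450 had 115.5, KYSE-890 had 77 and KYSE-960 had 69.5. Only in KYSE-520, the line where miR-21 was brightest, did it pass the background threshold, at 1.19 times its value. In KYSE-450 it was 0.858 of the threshold, and in KYSE-890 and KYSE-960 it lay under the median of all features, at 0.957 and 0.897 of it. On the KYSE-520 array it ranked 128th, with 138th for KYSE-450, 494th for KYSE-890 and 567th for KYSE-960. The deposited values of both arms thus ran in the same order of lines, but 3 of the 4 values of miR-21* were at background, where values have no order.

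**Figure D1:**
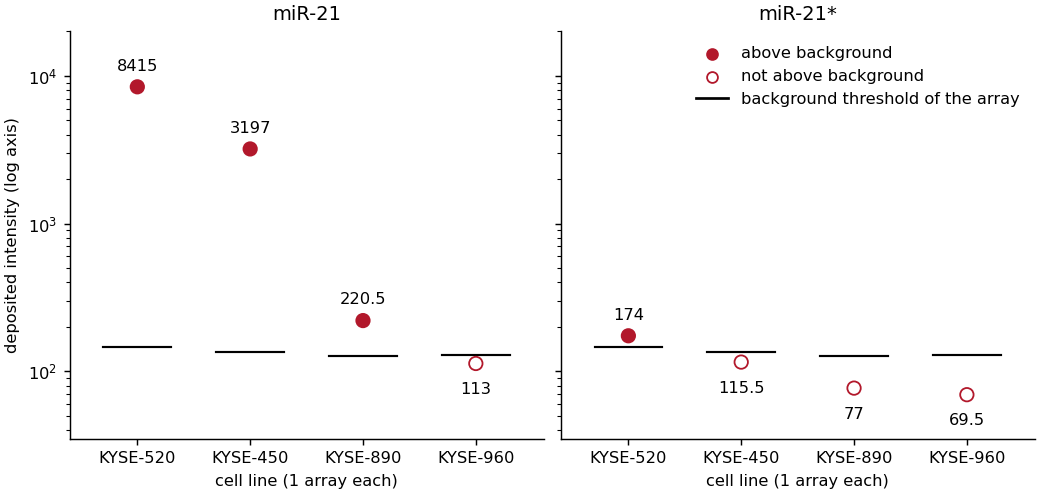
Deposited intensity (log axis) of miR-21, left, and miR-21*, right, in KYSE-520, KYSE-450, KYSE-890 and KYSE-960, 1 array each. Each point is 1 array, filled where above the background threshold drawn as a bar: miR-21 falls between 8415 in KYSE-520 and 113 in KYSE-960, and miR-21* passes the threshold in KYSE-520 alone.

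The arrays themselves differed in brightness, which bears on every fold below. KYSE-520 had a summed intensity of 349156, KYSE-450 had 285341, KYSE-890 had 192550 and KYSE-960 had 180682. Above background were 151 features of KYSE-520, 118 of KYSE-450, 95 of KYSE-890 and 94 of KYSE-960. By these measures miR-21 was bright on the 2 brighter arrays and dim on the 2 dimmer ones. The highest intensity of each array ran otherwise, at 57263.5 for KYSE-520, 55201 for KYSE-450, 65347.5 for KYSE-890 and 65471.5 for KYSE-960. How much of the difference in miR-21 goes with the array was not tested beyond rescaling. Quantile normalization, which gives all arrays the same set of values, shifted the 169 features that passed the threshold anywhere by a median of -0.66 log2 for KYSE-520, -0.15 for KYSE-450, 0.58 for KYSE-890 and 0.66 for KYSE-960. Folds are therefore given after quantile normalization and in the deposited values. A fold of miR-21 over KYSE-960 is a lower bound, taken against the dimmest feature above background on that array.

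Relative to KYSE-890, miR-21 in KYSE-520 was higher by 13.0-fold after quantile normalization (log2 difference 3.70) and 38.2-fold in the deposited values (log2 difference 5.25). Of the 159 features above background in at least 1 of these lines, 17.6% were at least 2-fold higher in KYSE-520 after normalization and 46.5% in the deposited values, and 1 feature had a larger difference than miR-21 on either scale. Against KYSE-960, miR-21 in KYSE-520 was at least 24.7-fold higher after normalization and at least 64.2-fold higher in the deposited values. There, 16.4% and 47.2% of 159 features were at least 2-fold higher in KYSE-520, and none had a larger difference than miR-21 on these 2 scales. Features under background in 1 line entered such counts at their bounds, here and below. The counts therefore do not show how many features truly differed more than miR-21. The distance of miR-21 from the typical feature was wide on both scales. Against KYSE-890, the median log2 difference of the 87 features above background in both lines was -0.60 after normalization and 1.02 in the deposited values. Against KYSE-960, it was -0.70 and 1.02 over 86 such features, which leave out miR-21.

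KYSE-450 stood in the same relation to the dim lines at a lower level. Relative to KYSE-890, miR-21 in KYSE-450 was higher by 5.63-fold after normalization and 14.5-fold in the deposited values, where 16.8% and 44.3% of 131 features were at least 2-fold higher in KYSE-450. A larger difference than that of miR-21 was found in 7 of the 131 features after normalization and in 5 in the deposited values. Relative to KYSE-960, miR-21 in KYSE-450 was at least 10.7-fold higher after normalization and at least 24.4-fold higher in the deposited values, against 18.1% and 44.9% of 127 features that were at least 2-fold higher in KYSE-450.

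Between KYSE-520 and KYSE-450 the difference in miR-21 was narrower than that between KYSE-520 and KYSE-890, and its size depended on the scaling. miR-21 was 2.31-fold higher in KYSE-520 after normalization and 2.63-fold in the deposited values. Over the 112 features above background in both lines, the middle range of log2 differences, the 10th to the 90th percentile, ran between -0.64 and 0.66 after normalization and between -0.29 and 1.21 in the deposited values. The log2 difference of miR-21, 1.21 after normalization and 1.40 in the deposited values, lay above both ranges. Of these 112 features, 4 had a larger difference than miR-21 after normalization and 7 in the deposited values. At least 2-fold higher in KYSE-520 were 5.10% of 157 features after normalization and 12.7% in the deposited values. When arrays were scaled to equal medians or equal 75th percentiles, taken over the 184 features that no array held under its median, the difference was 0.98 or 0.93 log2, just under 2-fold.

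Between KYSE-890 and KYSE-960, whether miR-21 differed by 2-fold depended on the background threshold and on the scaling. The intensity of 220.5 in KYSE-890, against a value under the background threshold in KYSE-960, gives a level at least 1.89-fold higher in KYSE-890 after normalization and at least 1.68-fold higher in the deposited values. With the threshold at 2 SD, where KYSE-960 also counted as above background, the normalized log2 difference was 1.47, past 2-fold and no longer a bound. In the deposited values the intensities at that threshold, 220.5 and 113, were just under 2-fold apart. miR-21 in KYSE-960 passed that threshold narrowly, at 2.06 SD over the array median. In this pair 6.31% of 111 features were at least 2-fold higher in KYSE-890 on either scale. The order KYSE-520, KYSE-450, KYSE-890, KYSE-960 was kept by miR-21 under all 5 scalings run. No replicate spread exists against which to judge any step of that order.

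**Figure D2:**
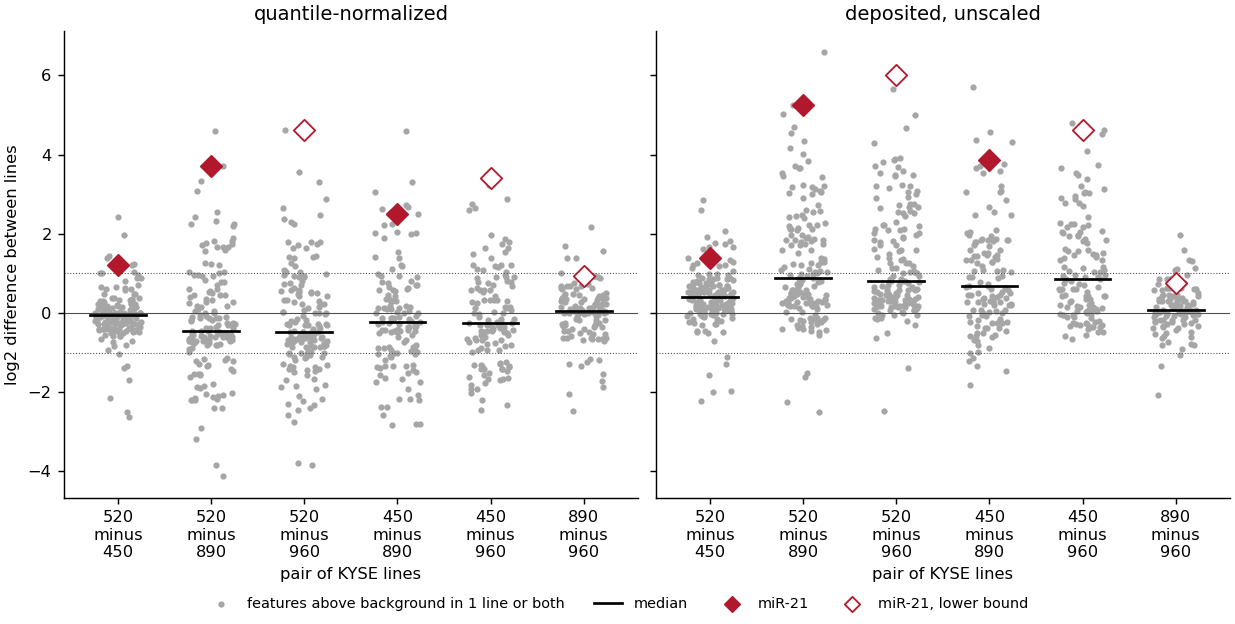
Log2 difference between lines, first line minus second, for the 6 pairs of KYSE lines after quantile normalization (left) and in the deposited values (right). Grey points are features above background in 1 line of the pair or in both, those in 1 line standing at their bound, black bars are medians, dotted lines mark 2-fold, and diamonds are miR-21 (open where a lower bound). miR-21 stands at 3.70 for KYSE-520 minus KYSE-890 on the left and 5.25 on the right, far above the medians, and near 1 for KYSE-520 minus KYSE-450 and KYSE-890 minus KYSE-960.

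**Figure D3:**
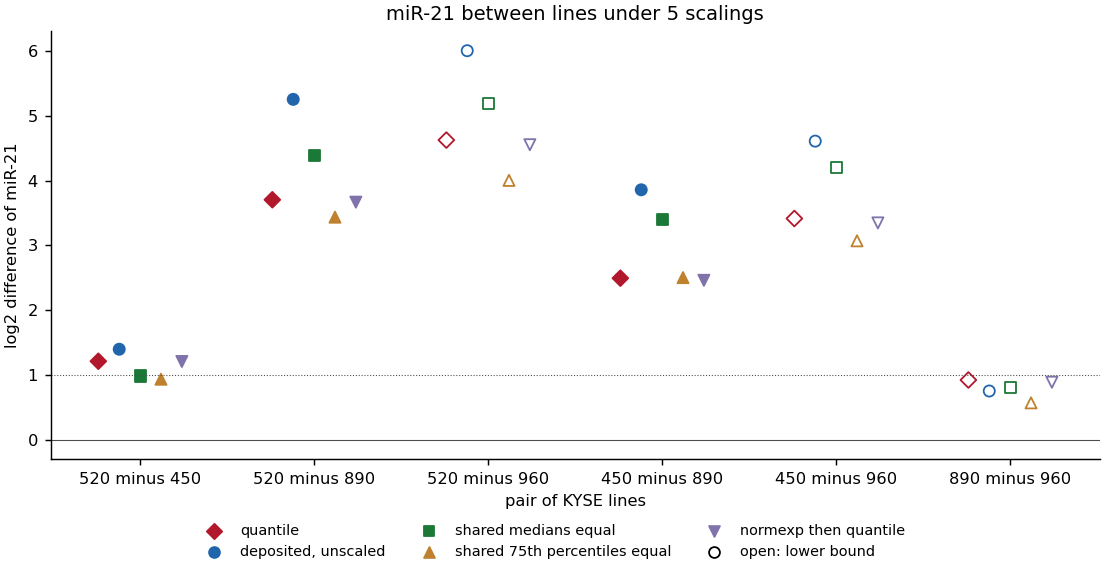
Log2 difference of miR-21 for each pair of KYSE lines under 5 scalings of the arrays, open symbols being lower bounds and the dotted line 2-fold. All values are above 0. KYSE-520 minus KYSE-450 lies between 0.93 and 1.40, and KYSE-520 minus KYSE-890 between 3.43 and 5.25.

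For miR-21*, a fold could be given only from KYSE-520 and only as a bound. In the deposited values it was at least 1.28-fold higher in KYSE-520 than in KYSE-450, at least 1.34-fold higher than in KYSE-890 and at least 1.33-fold higher than in KYSE-960. After quantile normalization the bound fell under 1 for all 3 pairs, so no fold is given on that scale. The large differences seen in miR-21 could not be looked for in its opposite arm, because the signal of that arm left almost no room above background. Whether the 2 arms change in proportion was not detectable at this signal, and the brightness of the 2 probes cannot be set against each other.

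Few features had a gap as wide as miR-21 between the 2 bright and the 2 dim lines. Taking the lower of KYSE-520 and KYSE-450 over the higher of KYSE-890 and KYSE-960, miR-21 had a gap of 5.63-fold after normalization and 14.5-fold in the deposited values. Of the 169 features above background in at least 1 line, 14 (8.28%) had such a gap of at least 2-fold after normalization and 49 (29.0%) in the deposited values, and 3 features had a wider one than miR-21 on either scale. Gaps of at least 2-fold the other way, with KYSE-890 and KYSE-960 both higher, were present in 22 of the 169 after normalization and 0 in the deposited values. With 75th percentiles equal there were 71, beside 13 in the direction of miR-21. The balance of the 2 directions thus depended on the scaling. The whole span of miR-21 over the 4 lines was at least 24.7-fold after normalization, where 0 of the other features spanned more, and at least 64.2-fold in the deposited values, where 1 did. With 75th percentiles equal, 3 spanned more. For any feature under background on an array, the floor of that array stood in for its intensity, so its gap and span need not be the true ones. The median span of the 169 features was 2.07-fold after normalization and 2.13-fold in the deposited values. For miR-21 these values restate the width of span for which it was chosen.

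At the threshold of 3 SD, miR-21 was above background in KYSE-520, KYSE-450 and KYSE-890 and not in KYSE-960, a set that 6 features shared, miR-21 included, while 75 features were above background in all 4 lines. At 2 SD miR-21 itself was above background in all 4. Detection of miR-21* in KYSE-520 alone was shared by 31 features, miR-21* included. The stepwise order of miR-21, highest in KYSE-520, then KYSE-450, KYSE-890 and KYSE-960, occurred in 8 of 123 features above background on at least 2 arrays after normalization and in 29 in the deposited values. Features under background in both KYSE-890 and KYSE-960 stood at the floors of these arrays, 129.5 and 131 in the deposited values. They could not be counted on either scale, whatever their intensities, so these counts do not show how rare the order is.

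The 2 features whose pattern was most like that of miR-21 were bright in the same lines, and so were some of the next ones. Likeness was the root mean square difference, over the 4 lines, between log2 values centred on each feature's own mean. It was computed for 122 other features above background on at least 2 arrays, for which its median was 2.01 after normalization. MIMAT0005927 was the most like, at 0.48, and KYSE-520 had 4224 intensity units of it, KYSE-450 had 3052.5, KYSE-890 had 123.5 and KYSE-960 had 132. MIMAT0000074 came next, at 0.73, and KYSE-520 had 3629 units of it, KYSE-450 had 3176.5, KYSE-890 had 155 and KYSE-960 had 186.5. Both were likewise bright in KYSE-520 and KYSE-450 and close to background in KYSE-890 and KYSE-960, but the gap of miR-21 between KYSE-520 and KYSE-450 was wider than theirs. These were also the nearest 2 in the deposited values. The other 4 of the 6 most like features lay at 0.83 to 1.02. Of these 4, 1 stood at 2.27 log2 over its own mean in KYSE-520 and at -0.15 in KYSE-450. Another was at 0.29 in KYSE-450, so at least part of the drop of both lay between KYSE-520 and KYSE-450. The first was under background in KYSE-890 and KYSE-960, and the other in KYSE-960. How much further they fell there is known only as a lower bound. Of the 6, 3 were among the 6 most like in the deposited values. Values under background stood at the floor of their array, as that of miR-21 did in KYSE-960. Of the 6, MIMAT0000074 alone was above background on all 4 arrays. A feature could also enter through KYSE-520 and KYSE-450 alone. The shared low end is therefore partly set by the floors and is not a measured likeness. This likeness rests on 4 arrays, 1 per line, and the files do not pair these accessions with names.

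**Figure D4:**
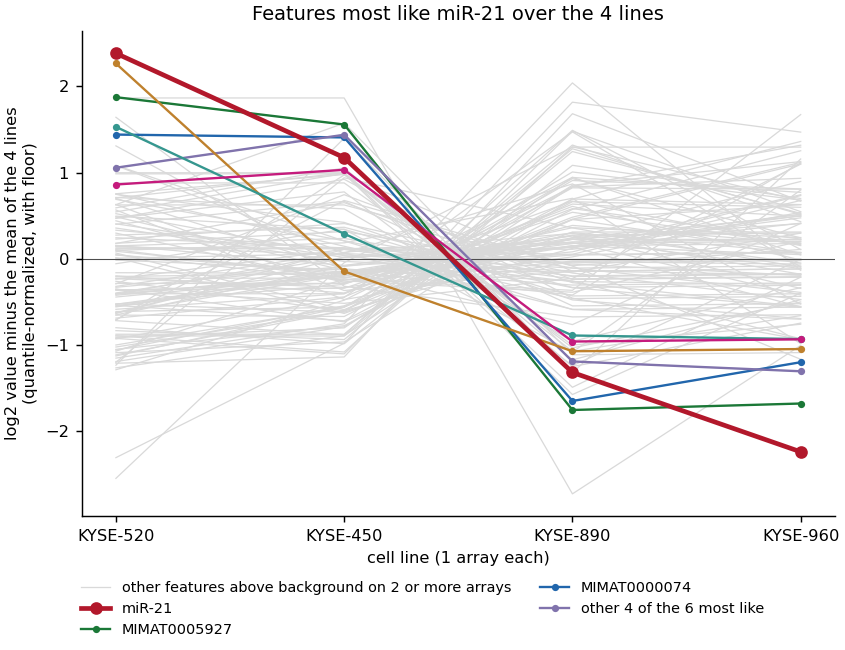
Log2 value minus the mean of the 4 lines, after quantile normalization and with values under background raised to the dimmest feature above it, for miR-21 (red), the 6 features most like it (colours) and the others above background on at least 2 arrays (grey). miR-21 runs between 2.38 in KYSE-520 and -2.24 in KYSE-960, and the 6 coloured features are all above their mean in KYSE-520 and below it in KYSE-890 and KYSE-960, while in KYSE-450 1 of them is below its mean, at -0.15.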

How the data were processed

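The authors deposited 1 intensity per feature and array, on a linear scale. Per the labels' protocols, total RNA labelled with Hy5 was hybridized to a human microRNA oligonucleotide chip and scanned with a ProScanArray; spot averaging, background handling and scaling are not stated there. Every deposited intensity was above 0 and a multiple of 0.5, and the array medians (77.5 to 85.5) lay close together, as with background left in, which draws folds of dim features towards 1. Arrays were quantile-normalized with limma 3.58.1 (R 4.3.3). Values under background were raised to the dimmest feature above background on that array, or kept if higher, and taken to log2. Features above background in at least 1 line of a pair were counted at 2-fold or more. Counting and likeness were tested on simulated arrays that shared 1 profile and brightness, without normalization. That check therefore does not cover the differences in brightness between the real arrays. Alternatives were other scalings, normexp (offset 50), thresholds of 2 or 5 SD, a 4-fold threshold, no floor, ranks and leaving out lines; subtraction of the array median was added after seeing the data. The members, lists and rules were chosen with earlier results of these data known. Named features were the members and the first 2 of the 6 features most like miR-21. Lists of related microRNAs, cell-type markers and hairpins with both arms on the chip could not be matched, because the table holds no names, and were not analysed here. Sequences come from RefSeq (GRCh38.p14), and the precursor was folded with RNAfold 2.7.2. With 1 array per line no test was run, and the number of arrays limits the precision.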

Additional observations from a re-analysis of the deposited data

How the results depend on the processing

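No paired analysis was possible because the design holds a single array per line. Of 51 alternative values of the log2 difference of miR-21, 0 changed direction, and the causes of changes were not tested. Not all of these values were free to change direction. Moving the threshold left the pairs without KYSE-960 as they were. In the pairs with KYSE-960, most settings held a value above background against the floor of that array. KYSE-520 minus KYSE-450 (1.21) was 0.98 with shared medians equal and 0.93 with shared 75th percentiles equal. KYSE-520 minus KYSE-890 (3.70) was 5.25 in the deposited values, 4.38 with shared medians equal and 5.89 with the array median subtracted. KYSE-450 minus KYSE-890 (2.49) was 3.86, 3.40 and 4.48 under these 3 settings. KYSE-520 minus KYSE-960 (at least 4.63) was at least 6.01 in the deposited values, 4.0 with 75th percentiles equal and 3.95 with the threshold at 5 SD. KYSE-450 minus KYSE-960 (at least 3.41) was at least 4.61 in the deposited values, 4.20 with shared medians equal and 2.74 at 5 SD. KYSE-890 minus KYSE-960 (at least 0.92) was 1.47 at 2 SD, where KYSE-960 is above background and the value is no bound, and at least 0.25 at 5 SD; the bounds move with the threshold by construction. miR-21 was above background in 4 lines at 2 SD (3 at 3 SD), and miR-21* in 0 lines at 5 SD (1 at 3 SD). Counts of features at 2-fold or more, both directions together, were 26 in the deposited values for KYSE-520 and KYSE-450 (15 after normalization), and 10 there, 11 with shared medians equal and 9 with 75th percentiles equal for KYSE-890 and KYSE-960 (17 after normalization). With 75th percentiles equal they were 103 for KYSE-520 and KYSE-890 (63) and 106 for KYSE-520 and KYSE-960 (65). At 4-fold, the 6 pairs in the order of the plots gave 4, 27, 20, 24, 10 and 3. Of the 6 features most like miR-21, 3 were shared with the deposited values, with shared medians equal, with 75th percentiles equal and at 5 SD, 1 was shared when ranks were used, and 3 to 5 when a line was left out, 3 being without KYSE-520. The dim signal of miR-21* and of miR-21 in KYSE-960 limits what these arrays can show.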
